A study of Mus musculus with 20 samples.

Results

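Transcripts of 10 mouse genes that the antioxidant transcription factor NRF2 is known to control (Nqo1, Srxn1, Gclm, Gclc, Hmox1, Txnrd1, Slc7a11, Gsr, Prdx1 and Osgin1) were followed in B16 melanoma cells that received different forms of the NF-kB subunit p65/RelA. The genes were chosen by name, with earlier results of these data known, and their probes were found through the accession that the array gives each probe. All 10 were on the array, with 13 probes among them, and all 10 passed the filter on low signal, out of 18739 genes tested and 32016 on the array. NRF2, the product of Nfe2l2, is held at a low level by KEAP1, which hands it to a CUL3 ubiquitin ligase. Under oxidative or electrophilic stress NRF2 escapes, pairs with a small MAF protein and binds antioxidant response elements in genes for glutathione synthesis, thioredoxin recycling and quinone detoxification. In melanoma cells these enzymes also deal with the reactive quinones that pigment synthesis makes.

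The samples were total RNA of a murine B16 line described as Bcr-Abl+, with the strain given as mouse C3H eOuJ, and all 6 groups share that background. A void plasmid was transfected in the group titled "Blanck" (void, 3 arrays), wild-type p65/RelA in WT (3 arrays) and the non-cleavable D361E mutant in D361E (3 arrays). The other groups received residues 1 to 361 (N-fragment, 3 arrays), residues 362 to 549 (C-fragment, 3 arrays) or both fragments together (N+C, 5 arrays). The design set the whole protein against its uncleavable form and against the pieces that a cut at residue 361 would leave. The vector's promoter, the time after transfection and the number of clones are not given in the sources used here. How the replicates were made is not stated either, so p-values measure the spread between these samples, which may be technical.

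The promoter sequences are shown because several of these genes moved together and are known for antioxidant response elements near their starts. The RefSeq promoter table (GRCm38.p6) matched 7 of the 10 genes, Srxn1, Gclm, Txnrd1, Slc7a11, Prdx1, Osgin1 and Nqo1, in 9 windows of 300 bases. Gclc, Hmox1 and Gsr were not matched. Each line gives the 250 bases before the annotated start, 5′ to 3′ on the gene's strand, for Srxn1 (chr2:152105274-152105523, plus strand), Gclm (chr3:122245307-122245556, plus), Prdx1 (chr4:116685349-116685598, plus), one of the Txnrd1 starts (chr10:82858956-82859205, plus) and Nqo1 (chr8:107403206-107403455, minus). Capitals mark TGANNNNGC on either strand, a loose form of the antioxidant response element core that was added after the stricter one had been searched.
Srxn1: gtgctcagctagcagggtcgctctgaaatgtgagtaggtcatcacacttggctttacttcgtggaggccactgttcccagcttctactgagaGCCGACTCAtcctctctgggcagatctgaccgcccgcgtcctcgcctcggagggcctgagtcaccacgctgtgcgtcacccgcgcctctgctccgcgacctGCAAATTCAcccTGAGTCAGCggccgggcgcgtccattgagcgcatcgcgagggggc
Gclm: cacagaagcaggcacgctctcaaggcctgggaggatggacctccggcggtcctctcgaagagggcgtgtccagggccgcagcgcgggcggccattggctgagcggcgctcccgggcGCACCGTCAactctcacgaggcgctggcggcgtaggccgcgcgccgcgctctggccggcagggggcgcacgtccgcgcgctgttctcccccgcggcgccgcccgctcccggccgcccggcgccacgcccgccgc
Prdx1: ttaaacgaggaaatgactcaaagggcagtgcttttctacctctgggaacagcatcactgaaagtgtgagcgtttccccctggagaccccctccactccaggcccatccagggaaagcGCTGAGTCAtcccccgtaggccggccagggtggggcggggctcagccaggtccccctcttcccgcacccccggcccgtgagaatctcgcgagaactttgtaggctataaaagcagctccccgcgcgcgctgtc
Txnrd1: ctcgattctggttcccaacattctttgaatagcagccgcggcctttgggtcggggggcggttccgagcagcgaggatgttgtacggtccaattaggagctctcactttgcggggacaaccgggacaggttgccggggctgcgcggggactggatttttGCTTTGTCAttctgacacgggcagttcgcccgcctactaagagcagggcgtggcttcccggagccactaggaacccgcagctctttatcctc
Nqo1: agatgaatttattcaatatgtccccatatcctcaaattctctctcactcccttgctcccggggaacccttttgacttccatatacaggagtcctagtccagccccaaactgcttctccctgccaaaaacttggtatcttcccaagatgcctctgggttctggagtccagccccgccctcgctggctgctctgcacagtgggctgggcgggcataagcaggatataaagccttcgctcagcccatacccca
The stricter core TGACNNNGC, on either strand, lay in the 300-base windows of 4 of the 7 genes (Srxn1, Gclm, Txnrd1 and Prdx1) and for 14.0% of the 27025 genes of the table. By window it was in 4 of 9 and in 12.4% of all 32851. The Srxn1 match begins at base 29 after the start, outside the stretch shown. The loose form TGANNNNGC was found for 6 of the 7 genes and for 45% of all genes, so its presence is common. The AP-1 letters TGANTCA, which can overlap the loose core, were present for Srxn1, Prdx1 and Osgin1 and for 8.97% of all genes. In Prdx1, an AP-1 match that begins 131 bases before the start lies inside the capitals, whose first base is at 133. A match to the kappaB consensus, the binding sequence of the p65/RelA family, was found for Prdx1 alone among the 7 genes, beginning 170 bases before the start on the opposite strand, and for 6.55% of all genes. The Nqo1 stretch shown holds no TGANNNNGC, which says nothing about elements outside it. No binding was measured.

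Each array read 1 colour, and its level for a gene is given here as a scaled signal, on which 1000 is the 75th percentile of that array. Between 51.1 and 57.9% of the 43020 non-control spots were well above background per array, and no spot was saturated. All 10 melanocyte markers were above background on all 20 arrays. The haematopoietic and B-lymphoid genes Ptprc, Ebf1, Pax5 and Gata1 were above background on no array. In that list 1 gene was above background on all 20 arrays and was called higher with C-fragment (0.37, but 0.21 and not called with normexp), and 2 were above background on some arrays. The fibroblast list moved with the groups: its summed scaled signal was 2830 to 3470 in N-fragment against 1270 to 1630 in void, 648 to 718 in C-fragment and 190 to 671 in N+C. Of its 6 genes Col3a1, Dcn and Lum were above background on no array, and 1 was on all 20. Of its 3 tested genes 2 were called higher with N-fragment, 1 lower with C-fragment and 1 lower with N+C. The part of this list in the values below was not tested. The macrophage list summed to 2180 to 2650 in N-fragment against 2770 to 5290 in void and 1970 to 3520 in the other groups. Of its 4 tested genes 2 were lower with N-fragment, Cd14 (-1.73, not called with normexp) and Itgam (-0.94, not called without scaling), 1 was lower with WT, 1 lower with D361E and 1 higher with N+C. Of the 6 macrophage genes 3 were above background on all 20 arrays and 1, Adgre1, on none, and the part of this list was not tested either. Rela itself read 17600 to 18300 in void and 18700 to 19100 in WT, a log2 difference of 0.075 ± 0.07 (SE, limma adjusted p = 0.571), and was called higher in N-fragment (0.36 ± 0.07, adjusted p = 0.00089). Where the Rela probe lies relative to the transfected sequences is not known here. As these are bulk samples, fewer cells making a transcript and less of it per cell cannot be told apart.

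The 5 N+C arrays fell into separate sets. Arrays 1 to 3 differed from each other by more than 1 log2 unit at 827 to 1209 genes, arrays 4 and 5 at 1089, and arrays of different sets at 1905 to 2757, where replicate pairs of the other groups gave 833 to 1914. N+C 1 and N+C 4 share a slide, so the split does not follow the slides. The spread inside N+C enters the error of every comparison, since all 20 arrays share 1 fit. Results are therefore also given without some or all of the N+C arrays, an alternative chosen after seeing the data.

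Against void, between 1 and 6 of the 10 genes were called higher with the p65/RelA constructs. Void was the only group without a construct, so a fall in void and a rise with every construct cannot be told apart. Nqo1, which encodes the quinone reductase that is the classic readout of NRF2, was higher with every construct. Srxn1, Gclm and Gclc were higher with D361E, N-fragment, C-fragment and N+C, and none of the 3 was called with WT. A gene was called where limma's adjusted p was under 0.05 over all 18739 genes. The counts share the 3 void arrays and are not independent. As the genes were chosen with earlier results of these data known, the shares of all genes beside the counts are description and no test.

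With WT, 1 gene was called higher and none lower, beside a background of 3.22% of all genes higher and 6.16% lower. With D361E, 5 were higher (Nqo1, Srxn1, Gclm, Gclc and Gsr) and none lower, beside 6.04% and 7.44%. With N-fragment, 5 were higher (Nqo1, Srxn1, Gclm, Gclc and Txnrd1) and 1, Prdx1, lower, beside 13.2% and 17.9%. C-fragment and N+C each had 6 higher (Nqo1, Srxn1, Gclm, Gclc, Txnrd1 and Gsr) and none lower. Their backgrounds were 4.88% higher and 8.24% lower for C-fragment, and 11.8% and 12.8% for N+C. The median log2 difference of the 10 genes was 0.31 with WT, 0.61 with D361E, 0.44 with N-fragment, 0.42 with C-fragment and 0.38 with N+C, and stayed so with Nqo1 set to its lower bound, while the median of all genes lay between -0.056 and -0.021. Groups did not overlap, with every construct array above every void array, for 7 genes with WT, 9 with D361E, 7 with N-fragment, 8 with C-fragment and 6 with N+C, beside 12.3, 13.8, 18.4, 15.9 and 11.7% of all genes. Every construct array lay below every void array for 1 gene, Prdx1, with N-fragment and with N+C and for none with the other constructs, beside 25% and 12.7% of all genes for these 2 and 21.3% (WT), 17.3% (D361E) and 23% (C-fragment). A second, dimmer Prdx1 probe overlapped void in N+C.

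**Figure D1:**
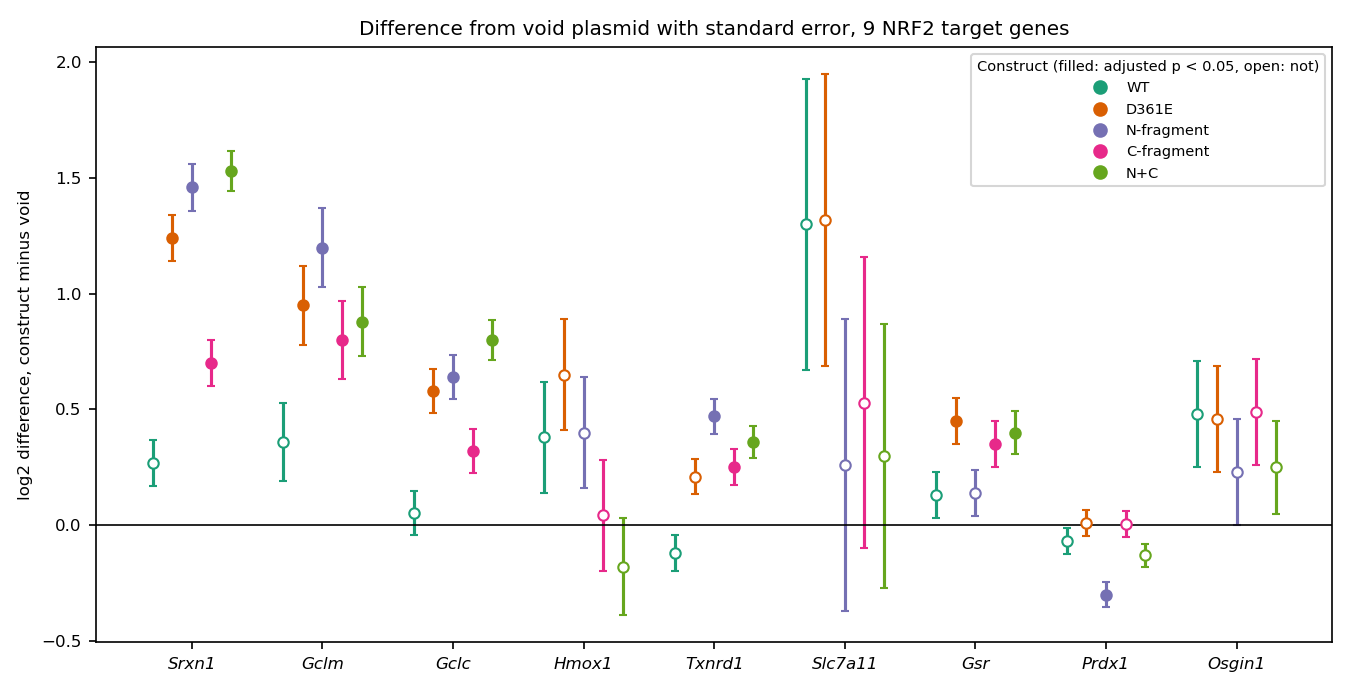
Log2 difference from void (vertical axis) of 9 NRF2 target genes (horizontal axis) for the 5 constructs, as points with standard errors from limma; filled points passed an adjusted p of 0.05 and open points did not, and Nqo1, off this scale, is left out. Srxn1 reached 1.53 in N+C and 1.46 in N-fragment but 0.27 in WT, and Slc7a11 carried the widest errors (0.57 to 0.63).

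The WT count depended on the N+C arrays. Without any N+C array, WT had 5 of 10 genes called, all higher (Nqo1, Gclm, Hmox1, Slc7a11 and Osgin1), and D361E had 8, where 15.4% and 20% of all genes were then called in either direction. The authors' values without scaling between arrays put the median of all genes at 0.12 (D361E) to 0.37 (WT) and called 10 of 10 genes higher with WT, where 41% of all genes were called. On them the share of calls that were higher rose from 34.3 to 96.7% for WT, 44.8 to 77.0% for D361E, 42.4 to 84.9% for N-fragment, 37.2 to 84.8% for C-fragment and 47.9 to 84.0% for N+C. For WT that share was also 45.9% after quantile normalization and 47.0% with normexp.

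**Figure D2:**
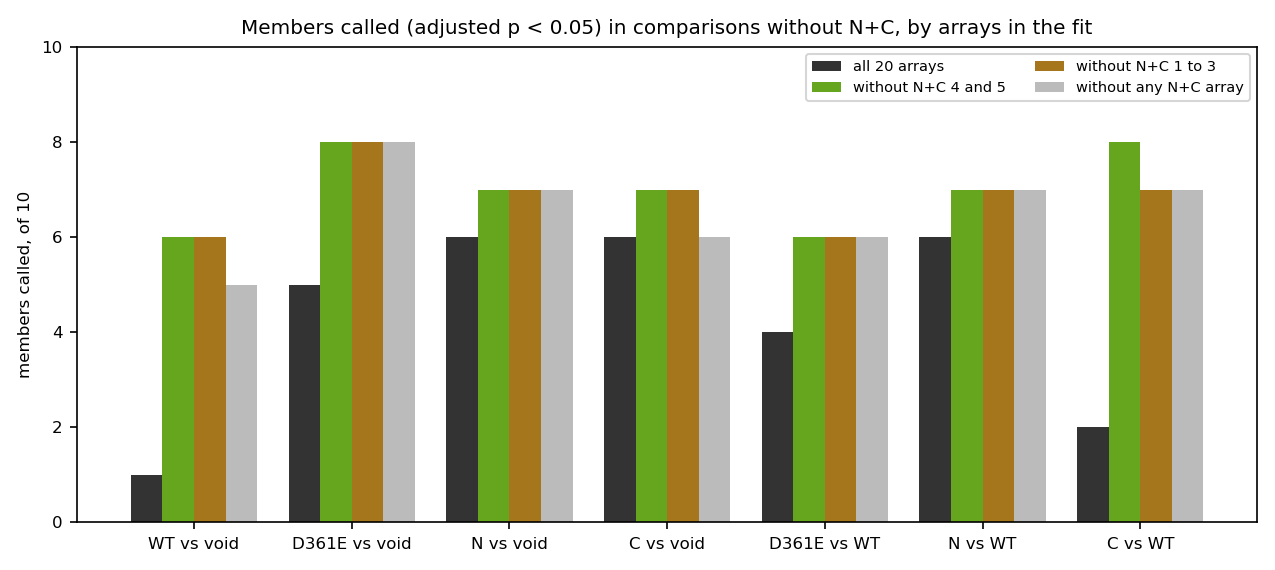
Number of the 10 NRF2 target genes called in either direction (vertical axis) in 7 comparisons that do not involve N+C (horizontal axis), with bars for the fit on all 20 arrays and for fits that leave out N+C arrays. WT against void rises from 1 gene to 5 or 6, where calls over all genes rise from 9.39% to between 15.4 and 17.7%. C-fragment against WT rises from 2 to 7 or 8, where calls over all genes rise from 4.44% to between 9.31 and 10.9%. The C-fragment counts without N+C arrays hold genes of both directions.

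Nqo1, the 2-electron quinone reductase, showed the widest gap from void. The 3 void arrays gave scaled signals of 3.69, 4.43 and 3.7, none well above background. WT gave 103, 94.6 and 105. D361E read 262, 296 and 301. All were well above background, and neither set overlapped void or the other. The N-fragment arrays stood at 211, 187 and 182, and the C-fragment arrays at 143, 138 and 119. In N+C the values were 333, 325, 357, 158 and 165, so arrays 4 and 5 lay below the other 3 and below every N-fragment array. Since void gave only a bound, set by a background floor at a scaled signal of 18.6, the rise was at least 5.42-fold with WT (limma adjusted p = 2.08e-08 for the unbounded difference). It was at least 15.4-fold with D361E (adjusted p = 2.72e-10), at least 10.4-fold with N-fragment (2e-10), at least 7.16-fold with C-fragment (5.1e-09) and at least 13.6-fold with N+C (8.8e-11). These bounds hold for the main processing only. Under the other settings the lowest fitted log2 difference was 1.07 with WT, 1.97 with D361E, 1.64 with N-fragment, 1.3 with C-fragment and 1.9 with N+C. In the order void, WT, C-fragment, N-fragment, N+C and D361E, neighbours other than void and WT were not called (adjusted p = 0.177 to 0.685). These p-values take in the spread inside N+C (SD 0.59 log2 units). The WT, C-fragment and N-fragment arrays did not overlap each other, and C-fragment was called above WT without any N+C array (0.40, adjusted p = 0.0274). Within single slides, where a construct and void were hybridized side by side, the log2 difference, with void at the floor of its own array, was at least 2.49 for WT, at least 3.81 and 4.07 for D361E, at least 3.59 for N-fragment, at least 2.82 for C-fragment and at least 3.23 to 4.27 on 3 slides for N+C.

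Srxn1 encodes sulfiredoxin, which repairs over-oxidized peroxiredoxins. Its void arrays read 11900, 12800 and 12200, and its WT arrays 15400, 15100 and 13900. WT lay above void on every array, by 0.27 ± 0.10 log2 units (SE, adjusted p = 0.102), and was not called. D361E read 26200, 31400 and 29800, a rise of 1.24 ± 0.10, or 2.36-fold (adjusted p = 4.05e-07). N-fragment read 37100, 33900 and 30700, or 2.75-fold above void (adjusted p = 1.36e-08). These groups overlap each other and lie clear of void and WT. The C-fragment arrays, at 20800, 19800 and 19100, stood between, 1.62-fold above void (adjusted p = 0.000207). N+C gave 34300, 34600, 30800, 38100 and 40400, 2.89-fold above void (adjusted p = 5.85e-09), and arrays 4 and 5 were the highest of the series. WT and C-fragment differed by 0.43 (adjusted p = 0.0176), and N-fragment and N+C by 0.07 (adjusted p = 0.66).

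**Figure D3:**
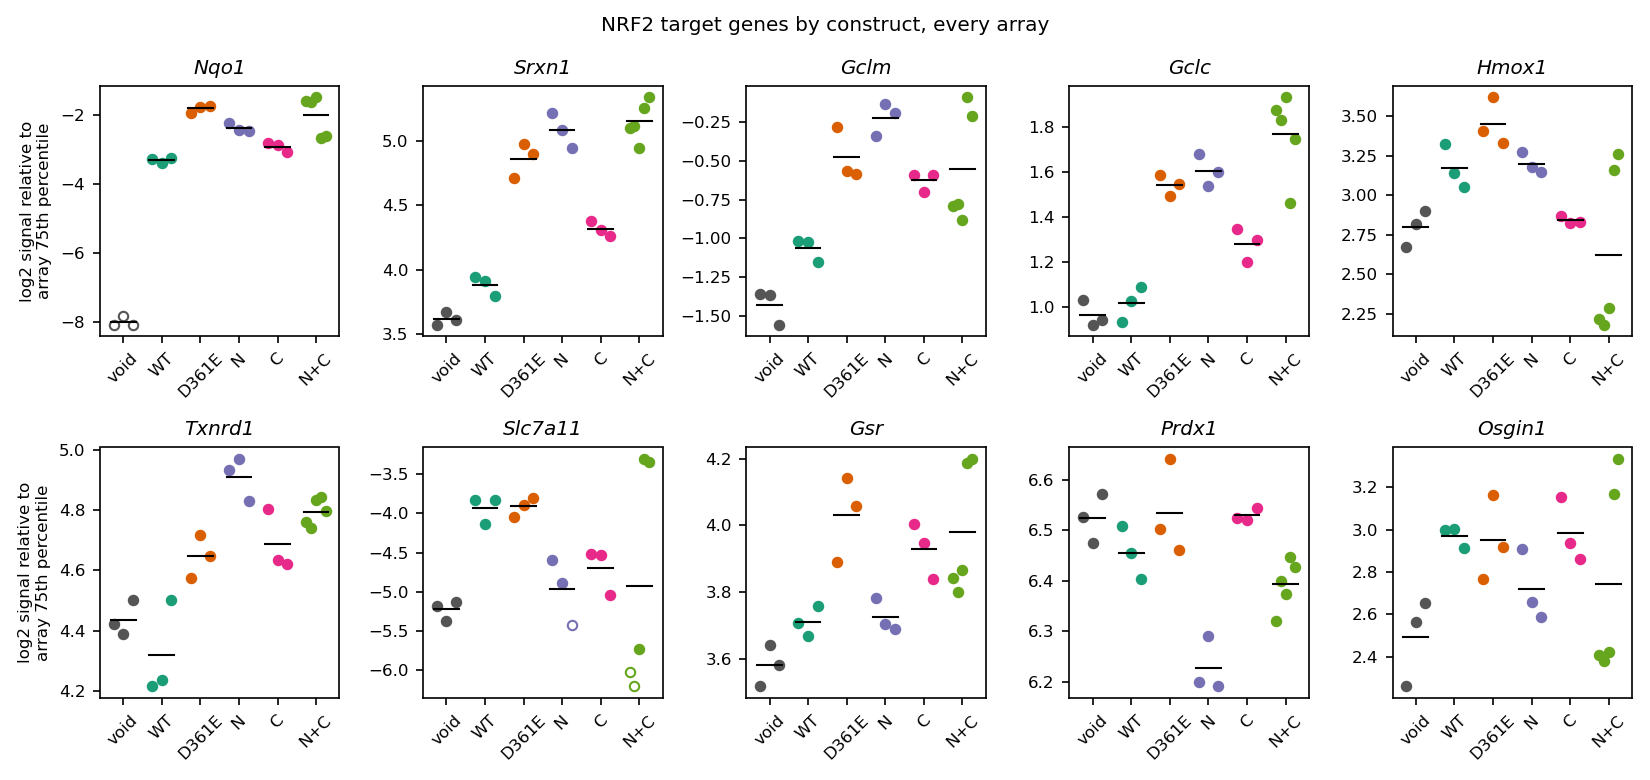
Level of each of the 10 genes on every array, as log2 signal relative to the array's 75th percentile (vertical axis, own range per gene), by construct (horizontal axis; N and C are the fragments); filled points were well above background, open points were not, and bars are group means. Nqo1 was below background on the 3 void arrays, and the N+C points split into 3 and 2 for Hmox1, Slc7a11 and Osgin1.

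Gclm and Gclc encode the modifier and catalytic subunits of glutamate-cysteine ligase, which carries out the rate-limiting step of glutathione synthesis. Gclm read 389, 388 and 340 in void and 493, 493 and 451 in WT. The groups did not overlap, and the difference of 0.36 ± 0.17 was not called (adjusted p = 0.222). It read 821, 676 and 666 with D361E (1.93-fold over void, adjusted p = 0.00152) and 788, 909 and 874 with N-fragment (2.3-fold, adjusted p = 6.28e-05). With C-fragment the values were 663, 616 and 665 (1.74-fold, adjusted p = 0.00625). N+C gave 578, 584 and 544 on arrays 1 to 3 and 938 and 862 on arrays 4 and 5, so this gene ran opposite to Nqo1 across the N+C arrays. Its 1.84-fold rise (adjusted p = 0.000614) stood in both sets, as 0.61 log2 units without arrays 4 and 5 and 1.27 without arrays 1 to 3.

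Gclc, the catalytic partner, lay at 1890 to 2040 in void and 1910 to 2130 in WT, which overlap (0.051 ± 0.095, adjusted p = 0.793). It rose to 2820 to 3000 with D361E (1.49-fold, adjusted p = 0.000686) and 2900 to 3200 with N-fragment (1.56-fold, adjusted p = 8.54e-05). With C-fragment it was 2300 to 2540 (1.24-fold, adjusted p = 0.0386), a call lost without any 1 of 7 arrays, namely each C-fragment array, void 2, void 3, D361E 3 and WT 2 (adjusted p = 0.0515 to 0.129). N+C ranged from 2760 to 3810 around a rise of 1.74-fold (adjusted p = 5.56e-06).

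Txnrd1 encodes the cytosolic thioredoxin reductase and Gsr the reductase that regenerates glutathione. Txnrd1 read 21400, 21000 and 22600 in void and 18600, 18800 and 22700 in WT. The groups overlap, and the difference of -0.12 ± 0.077 (adjusted p = 0.391) became 0.28 (adjusted p = 0.0204) without scaling between arrays. N-fragment, at 30500, 31300 and 28400, was 1.39-fold above void (adjusted p = 0.000195), and N+C, at 26700 to 28700, was 1.28-fold above it (adjusted p = 0.00123). Unlike the genes that split, Txnrd1 had nearly the same level on all 5 N+C arrays (SD 0.045 log2 units). C-fragment was 1.19-fold above void (adjusted p = 0.0435), a call lost without any 1 of 10 arrays (each void and C-fragment array, D361E 3, N-fragment 2, N+C 1 and N+C 3; adjusted p up to 0.18), and D361E was not called (0.21 ± 0.077, adjusted p = 0.0891).

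Gsr lay at 11500 to 12500 in void and 12700 to 13500 in WT, without overlap (0.13 ± 0.10, adjusted p = 0.492). It was 14800 to 17700 with D361E (1.37-fold, adjusted p = 0.0077), 14300 to 16000 with C-fragment (1.27-fold, adjusted p = 0.0351) and 13900 to 18400 with N+C (1.32-fold, adjusted p = 0.00476). The C-fragment call was lost without any 1 of its own or the void arrays (adjusted p = 0.0509 to 0.121). N-fragment, at 12900 to 13800, was not called (0.14 ± 0.10, adjusted p = 0.332). A second Gsr probe was called in the same 3 comparisons, with log2 differences of 0.49 (D361E), 0.53 (C-fragment) and 0.50 (N+C).

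Prdx1, peroxiredoxin 1, a peroxide-removing enzyme, was the only gene of the 10 called lower than in void in the fit on all 20 arrays. Void gave 92200, 88900 and 95200, and N-fragment 73400, 78300 and 73100, with no overlap. The difference was -0.30 ± 0.056 (adjusted p = 0.000749), and without scaling between arrays it was 0.036 (adjusted p = 0.771). A second Prdx1 probe gave -0.26 (adjusted p = 0.145), so the probes did not both pass. With the other 4 constructs the brightest Prdx1 probe stood within 0.13 log2 units of void (adjusted p = 0.0726 to 0.966). The second probe gave -0.21 (WT), -0.091 (D361E), 0.29 (C-fragment) and 0.1 (N+C), none called. It was called higher in C-fragment than in WT (0.5, adjusted p = 0.0379). Its N+C arrays, at 10200 to 11100, overlapped void, at 9270 to 10800.

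Hmox1, Slc7a11 and Osgin1 were not called in any comparison with void. Hmox1 encodes haem oxygenase 1, which breaks down haem. It read 6390, 7050 and 7460 in void, 10000, 8800 and 8310 in WT and 10600, 12300 and 10000 in D361E, so both constructs lay above void on every array. The differences were 0.38 ± 0.24 (adjusted p = 0.382) and 0.65 ± 0.24 (adjusted p = 0.0872). C-fragment, at 7080 to 7300, overlapped void. N+C gave 4650, 4540 and 4890 on arrays 1 to 3, below every void array, and 8950 and 9570 on arrays 4 and 5, above them. Its difference of -0.18 (adjusted p = 0.623) was -0.57 without arrays 4 and 5 (adjusted p = 0.000114) and 0.41 without arrays 1 to 3 (adjusted p = 0.00729). Without any N+C array, Hmox1 was called higher with WT (adjusted p = 0.0165), D361E (0.000338) and N-fragment (0.00417). A second Hmox1 probe gave 0.28 (WT), 0.58 (D361E) and -0.22 (N+C), also not called.

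Slc7a11, the cystine importer of system xc-, is a target of both NRF2 and ATF4 and was dim. It read 27.6, 24.2 and 28.5 in void, 70.6, 57.1 and 70.5 in WT and 60.7, 67.6 and 71.7 in D361E, with no overlap between void and either construct. The differences of 1.30 ± 0.63 (adjusted p = 0.238) and 1.32 ± 0.63 (adjusted p = 0.209) were called without any N+C array (adjusted p = 0.00108 and 0.00062). In N+C, arrays 1 to 3 read 15.3, 13.5 and 18.8, the first 2 not well above background, and arrays 4 and 5 read 101 and 98.9. The N+C difference was -0.76 without arrays 4 and 5 (adjusted p = 0.00794), with 1 of the 3 arrays well above background, and 1.90 without arrays 1 to 3 (adjusted p = 3.03e-05), so no single value describes that group.

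Osgin1 encodes an oxidative stress-induced growth inhibitor. It lay at 4790 to 6290 in void, 7530 to 8010 in WT, 6800 to 8960 in D361E and 7260 to 8900 in C-fragment, each construct clear of void. The log2 differences were 0.46 to 0.49 (adjusted p = 0.176 to 0.22), and all 3 were called without any N+C array (adjusted p = 0.0213 to 0.0304). N+C gave 5310, 5210 and 5360 on arrays 1 to 3, inside the void range, and 9000 and 10100 on arrays 4 and 5, above it.

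**Figure D4:**
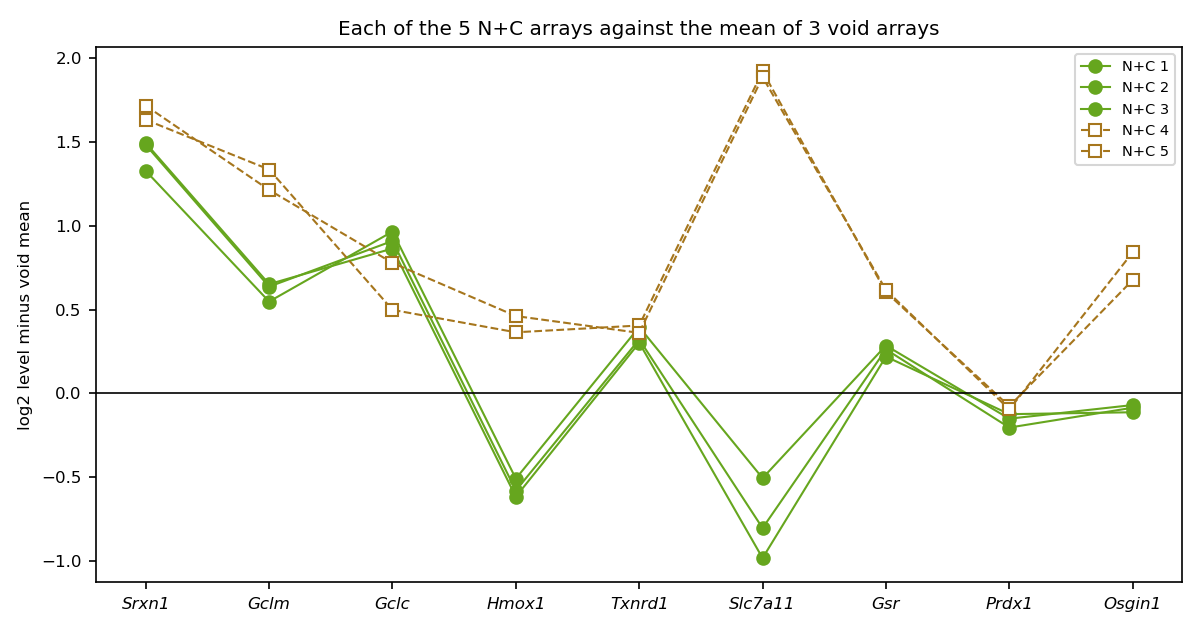
Level of 9 NRF2 target genes (horizontal axis) on each of the 5 N+C arrays, as log2 difference from the mean of the 3 void arrays (vertical axis); circles with solid lines are arrays 1 to 3 and squares with dashed lines arrays 4 and 5. The sets part most at Slc7a11 and lie together at Txnrd1 and Prdx1.

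Set against WT, the uncleavable form and the fragments gave higher levels of part of the list. D361E was higher than WT for 4 genes, Nqo1, Srxn1, Gclc and Txnrd1, and lower for none, beside a background of 2.42% of genes higher and 1.79% lower. Nqo1 was 2.84-fold higher (1.51 ± 0.26, adjusted p = 0.00227) and Srxn1 1.97-fold higher (0.98 ± 0.10, adjusted p = 1.43e-05). Gclc was 1.44-fold higher (adjusted p = 0.00345). Txnrd1 was 1.26-fold higher (adjusted p = 0.0221), a call lost without D361E 2, D361E 3, WT 1 or WT 2 (adjusted p up to 0.119). For Slc7a11 the groups were nearly level (0.017, 95% interval -1.33 to 1.37), as they were for Osgin1 (-0.021, interval -0.50 to 0.46), though these intervals are wide. Without any N+C array, Gclm and Gsr were also called higher, where 8.55% of all genes were called in either direction.

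N-fragment was higher than WT for Nqo1, Srxn1, Gclm, Gclc and Txnrd1 and lower for Prdx1 (5 and 1, though the second Prdx1 probe gave -0.048, adjusted p = 0.821), where 13.8% of all genes were higher and 13.5% lower. Srxn1 was 2.29-fold higher (adjusted p = 1.47e-07), Gclm 1.79-fold (0.00166) and Txnrd1 1.51-fold (2.5e-05). C-fragment was higher than WT for 2 genes, Srxn1 (1.35-fold, adjusted p = 0.0176) and Txnrd1 (1.29-fold, adjusted p = 0.0108), beside 2.09% higher and 2.35% lower. Both calls were lost without C-fragment 1 or WT 2, that of Srxn1 also without C-fragment 2 or WT 3 and that of Txnrd1 without WT 1 (adjusted p up to 0.0878). Nqo1 differed between C-fragment and WT by 0.40 (95% interval -0.15 to 0.95, adjusted p = 0.514). Without any N+C array, 5 genes were higher with C-fragment than with WT and 2, Hmox1 and Slc7a11, lower, beside 9.31% of all genes called in either direction. N+C was higher than WT for 6 genes and lower for none, beside 13.6% and 9.67%. Among them Srxn1 was 2.4-fold higher (adjusted p = 4.93e-08), Gclc 1.68-fold (9.84e-06) and Txnrd1 1.39-fold (0.000111). Gsr, 1.2-fold higher (adjusted p = 0.0468), lost its call without any 1 of 15 arrays, all but 2 D361E and 3 N+C arrays (adjusted p up to 0.15). The call was also lost without N+C arrays 4 and 5 together (0.13, adjusted p = 0.168), and the second Gsr probe was not called (0.21, adjusted p = 0.122). Gclm, 1.43-fold higher (adjusted p = 0.0245), lost its call without any 1 WT array (adjusted p = 0.0622 to 0.0886). Without scaling, the share of calls that were higher fell from 57.5 to 9.27% for D361E, 50.4 to 39.1% for N-fragment, 47.0 to 7.87% for C-fragment and 58.4 to 21.4% for N+C.

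The fragments were then compared with each other. C-fragment lay below N-fragment for Srxn1 (-0.76 ± 0.10, adjusted p = 2.58e-05) and Gclc (-0.32 ± 0.095, adjusted p = 0.0234) and above it for Prdx1 (0.30 ± 0.056, adjusted p = 0.00103). These were 3 of the 10 genes, beside 20.2% of all genes called in either direction. N+C exceeded C-fragment for Nqo1 (0.92), Srxn1 (0.84) and Gclc (0.49), 3 of 10 beside 17.3%. It differed from N-fragment for Prdx1 alone (0.17 higher, adjusted p = 0.0259), 1 of 10 beside 22.1%.

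Both fragments together gave less than the sum of their separate log2 differences from void for 4 of the 10 genes, and more for none, beside 23.1% of all genes called in either direction. For each gene the N-fragment and C-fragment differences from void were subtracted from the N+C difference from void. A gene that moves equally in all 3 therefore enters it with its sign turned. Srxn1 fell short by 0.63 ± 0.13 (difference -0.63, adjusted p = 0.00251): its separate rises of 1.46 and 0.70 were followed by 1.53 in N+C. Gclm gave -1.13 ± 0.23 (adjusted p = 0.00243) after 1.20, 0.80 and 0.88, and Txnrd1 -0.36 ± 0.10 (adjusted p = 0.0176) after 0.47, 0.25 and 0.36. The Txnrd1 call was lost without C-fragment 1 (adjusted p = 0.0561) or N-fragment 2 (adjusted p = 0.0511). Nqo1 gave -4.70 as fitted, and -2.46 with void set to its background floor, at least 5.49-fold under the sum in the main processing. Under the other settings the fitted Nqo1 value ranged from -5.34 to -1.03. For Gclc the value was -0.15 (95% interval -0.42 to 0.12). The 4 differences kept their sign without N+C arrays 4 and 5 and without arrays 1 to 3, although Txnrd1 was then not called in the second case (-0.34, adjusted p = 0.0519). Without scaling, 17.2% of calls over all genes were higher in place of 62.1%.

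NRF2 and its regulators moved in both directions. Of 18 tested, 2 were higher and 2 lower with WT, 3 and 2 with D361E and 6 and 5 with N-fragment. The counts were 2 and 1 with C-fragment and 4 and 1 with N+C, while without scaling WT had 8 and 1 and N-fragment 8 and 1. Shares of all genes, for this list and those that follow, were 3.22% higher and 6.16% lower with WT. They were 6.04 and 7.44% with D361E, 13.2 and 17.9% with N-fragment, 4.88 and 8.24% with C-fragment and 11.8 and 12.8% with N+C. Several list counts lie near these shares. Without scaling, the shares called in either direction were 41% (WT), 12.8% (D361E), 39.7% (N-fragment), 18% (C-fragment) and 29.7% (N+C). Nfe2l2, which encodes NRF2, read 11500 to 12600 in void, 8690 to 9800 in D361E and 8960 to 9780 in N-fragment, with no overlap. It was lower by -0.37 with D361E (adjusted p = 0.00216) and -0.34 with N-fragment (adjusted p = 0.0014), and neither was called without scaling between arrays (-0.21 and -0.0069). Keap1, whose product retains NRF2, and Bach1, a repressor at the same elements, were not called with any construct (adjusted p = 0.119 to 0.875 and 0.0643 to 0.965). Maff, a small MAF partner, read 69.5 to 80.1 in void and was higher with all 5 constructs. Its log2 difference was 1.05 with WT, 1.23 with D361E, 3.05 with N-fragment (596 to 646), 1.05 with C-fragment and 1.83 with N+C. Cul3, the ligase scaffold that acts with KEAP1, was also higher with all 5, by 0.40 to 0.53. Maff and Cul3 kept these calls under each scaling tried.

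The median log2 difference of 36 other NRF2 target genes lay between -0.10 and 0.076 over the 5 constructs. Of these, 2 were higher and 4 lower with WT, 10 and 4 with D361E, and 8 and 9 with N-fragment. The counts were 5 and 3 with C-fragment and 10 and 5 with N+C. Me1, the NADPH-making malic enzyme, was higher with all 5, from 0.35 with WT (adjusted p = 0.0285) to 0.97 with N+C (adjusted p = 7.73e-07). Blvrb, biliverdin reductase B, was also higher with all 5, from 0.24 with N-fragment to 1.05 with N+C. Ephx1, microsomal epoxide hydrolase, went the other way, from -0.69 with C-fragment to -1.81 with N-fragment. Cbr3, a carbonyl reductase, was lower with N-fragment (-3.15), WT (-1.24), C-fragment (-0.82) and D361E (-0.77) and higher with N+C (0.63, adjusted p = 0.000478). Without scaling the same list had 18 higher and 2 lower with WT and 14 and 4 with N-fragment, while Me1, Blvrb, Ephx1 and Cbr3 kept their calls under each scaling.

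Of 27 glutathione and thioredoxin enzymes outside the 10 genes, 0 were higher and 8 lower with WT, and 0 and 7 with D361E. The counts were 5 and 7 with N-fragment, 1 and 7 with C-fragment, and 4 and 5 with N+C. The WT split became 11 higher and 1 lower without scaling. Sesn1, a sestrin, was lower with all 5 constructs, by -0.49 (C-fragment) to -1.20 (N-fragment), but with WT (-0.11) and C-fragment (-0.26) not without scaling. Of 20 ATF4 targets, the list that shares Slc7a11's other regulator, 10 were higher and 1 lower with WT, and 5 and 5 with D361E. The counts were 3 and 7 with N-fragment, 3 and 3 with C-fragment, and 2 and 5 with N+C. Without scaling N-fragment and N+C each had 5 higher and 3 lower. Chac1, a glutathione-degrading enzyme, and Trib3 were higher with WT (1.74 and 1.73) and with D361E (0.81 and 0.75). With N-fragment both were lower (-0.72 and -0.61), though not called without scaling (-0.39 and -0.28). With C-fragment Trib3 was higher (0.85, adjusted p = 0.00595), and Chac1 lay above void on every array without a call (0.63, adjusted p = 0.0676). Ddit4 was lower with all 5, from -1.41 with WT to -2.46 with N-fragment. Of 17 genes of haem and iron handling, 1 to 3 were higher and 0 to 5 lower per construct, against 4 to 10 higher and 0 or 1 lower without scaling. Of 7 tested NADPH oxidase genes, 0 were higher and 1 to 3 lower per construct, where without scaling 0 to 2 were higher. Cyba, the shared membrane subunit of these oxidases, was not above background on any D361E or C-fragment array and was at least 209-fold and 164-fold lower there than in void (adjusted p = 0.0122 and 0.0136).

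Across the 20 arrays, which share groups and slides, the 10 genes formed more than one pattern. Pearson's r was 0.91 for Srxn1 and Gclc, 0.84 for Srxn1 and Gclm and 0.83 for Srxn1 and Txnrd1. Slc7a11 ran with Osgin1 (0.87) and Hmox1 (0.81), while its r with Srxn1 was 0.04. Prdx1 ran against Txnrd1 (-0.52) and Gclc (-0.51). Among 11414 named genes outside the list that were above background on all 20 arrays, the profiles most like that of Nqo1 were Rab32 (r = 0.97), Golga2 (0.92), Cul3 (0.89), A130010J15Rik (0.88) and Tns3 (0.88). That order rests on the 3 void arrays, on which Nqo1 was below background: over the other 17 arrays, chosen after seeing the data, r was 0.87 for Rab32, 0.58 for Golga2, -0.21 for Cul3, 0.69 for A130010J15Rik and 0.64 for Tns3. Those most like the mean of the 10 genes were Sipa1 (0.94), Oip5 (0.91), and Pradc1, Tg and M6pr (each 0.89), with r of 0.79 to 0.83 over the 17 arrays.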

How the data were processed

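Total RNA of 20 samples was labelled with Cy3 and hybridized to 1-colour Agilent arrays. They were spread over 5 slides, 4 on each, per the file headers, and the deposited intensity values were written by Agilent Feature Extraction 10.7.3.1 as background-subtracted processed signal. The authors' deposited series table equalled it on all 44397 features, which leaves the arrays unscaled, and its column medians were 23.5 to 39.0. Titles reading "Blanck" were taken as void plasmid. A RefSeq gene table gave symbols to 28663 of 39429 probes by accession.

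The members and lists were chosen with earlier results of these data known. With limma 3.58.1 in R 4.3.3, log2 intensity minus the array's 75th percentile (1.44-fold apart between arrays at most) was fitted. Outlier spots (98 to 285 per array) were left out, probes well above background on at least 3 arrays were kept (23433), and the brightest probe stood for a gene (18739 genes, 13824 with symbols). A linear model over all 20 arrays and 6 groups (residual df 14, prior df 1.44) gave moderated statistics, adjusted by Benjamini-Hochberg within each comparison. Groups with no array above background were given "at least" folds, from the normalized group means against the lowest signal well above background on each array. The number of arrays limits the precision. Named genes were the 10 members, Nfe2l2, Keap1, Bach1, Rela, the 5 most like profiles, and up to 2 called genes per direction, list and comparison with void. The haematopoietic marker list is not reported here in full.

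Alternatives were quantile normalization, normexp with offset 50 on the median signal, the series table without scaling, other filters, the mean of a gene's probes, fewer groups, slide as a block and each array left out.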

Additional observations from a re-analysis of the deposited data

Results flagged for a closer look

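The effect of adding a fragment differed with the presence of the other for 4 of the 10 genes, beside 23.1% of all genes called in either direction. The test was of the difference itself (limma, the N+C difference from void less those of N-fragment and C-fragment). The log2 values were -4.7 for Nqo1 (adjusted p = 1.42e-07), -1.13 for Gclm (adjusted p = 0.00243), -0.63 for Srxn1 (adjusted p = 0.00251) and -0.36 for Txnrd1 (adjusted p = 0.0176). The Nqo1 value rests on void arrays below background and is -2.46 with void at its background floor. As fitted under the other settings, it ranged from -5.34 to -1.03. Txnrd1 was not called without N+C replicates 1 to 3. No N+C array stood apart from the other 4 by the criterion for single outlying samples (gap over range above 0.71). That criterion measures only the gap from the most extreme array to its nearest neighbour, so it could not flag the split of the N+C arrays into sets. The widest relative gap was 0.6, for Gclc.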

How the results depend on the processing

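The number of the 10 genes called was recomputed under 11 other settings and with each of the 20 arrays left out. The cause of the changes that follow was not tested, except where fewer genes were tested. For WT against void (1 gene), the count was 2 with only those groups in the fit, 3 with slide as a block, 10 without scaling, 0 with probes above background on all arrays, where Nqo1 and Slc7a11 were not tested, 6 without N+C replicates 1 to 3, 6 without replicates 4 and 5, and 5 without any N+C array. For D361E against void (5) it was 8 in each of the 3 fits without N+C arrays. For C-fragment against void (6) it was 3 without a filter, where 5.18% of all genes were called in place of 13.1%. Against WT, D361E (4) gave 2 without scaling, and C-fragment (2) gave 1 with normexp, 0 without scaling, and 7, 8 and 7 without N+C replicates 1 to 3, without 4 and 5, and without any N+C array. Beyond the sum (4), the count was 8 without scaling and 7 without N+C replicates 4 and 5. There 28.3% and 33.9% of all genes were called, in place of 23.1%. Leaving out 1 array gave 1 to 1 for WT, 5 to 6 for D361E, 6 to 6 for N-fragment, 3 to 6 for C-fragment and 6 to 7 for N+C against void. Against WT it gave 3 to 5 for D361E, 6 to 6 for N-fragment, 0 to 3 for C-fragment and 4 to 6 for N+C, and 3 to 5 beyond the sum. Counts not listed here stayed within 1.5 times.

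Among differences called in the main fit or in the other setting, 6 changed sign. Without scaling, Prdx1 gave 0.036 for N-fragment and 0.33 for WT against void, and Txnrd1 0.28 for WT. Without N+C replicates 1 to 3, Hmox1 in N+C against void was 0.41 and Slc7a11 beyond the sum 1.12. Without replicates 4 and 5, Slc7a11 in N+C against void was -0.76. A further 53 sign changes (16 on leaving out 1 array), over 23 differences, were of values called in neither fit. Over the leave-one-out fits, 1936 of 2000 gene values kept their side of the threshold and 0 changed sign with a call. Signal below background limits differences of Nqo1 from void to bounds, and Slc7a11 was not well above background on 2 of the 5 N+C arrays. Over all genes, WT against void had 1759 calls, but 1116 without a filter, 7678 without scaling and 2878 to 3311 in the 3 fits without N+C arrays. D361E against void had 2527, but 1450 with only those groups and 3912 and 4117 without N+C replicates 1 to 3 and 4 and 5. C-fragment against void had 2460, but 3751 to 4254 without N+C arrays. D361E against WT had 788, but 522 without a filter, 1403 without scaling and 1602 to 1884 without N+C arrays. C-fragment against WT had 832, but 469 without a filter, 536 with normexp, 2299 with only those groups, 1699 with slide as a block and 1744 to 2051 without N+C arrays. With only the groups compared, N+C had 2023 calls against void in place of 4601 and 2645 against WT in place of 4360. No paired analysis was possible because the groups share no replicate numbers in the titles, which run on through all samples; slides, which hold several groups, were fitted as a block instead.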
